A study of Caenorhabditis elegans with 58 samples.

Results

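The major sperm protein (MSP) genes are the 30 rows of the count tables whose name is msp- followed by a number, of 45410 entries in each library. They were followed across 15 groups of L4 animals of Caenorhabditis elegans. All 30 held counts, and all 30 passed the low-count filter in the 36 libraries on parental age, temperature and mating, while 29 passed it in the outcross libraries, where msp-32 did not. The rule uses the name and no measured value, although the family was taken up with earlier results of these data known.

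MSP is the main protein of nematode sperm. It assembles into the filaments that push the crawling sperm cell, and it is also released as a signal that starts oocyte maturation and contraction of the gonadal sheath, in part through the Eph receptor VAB-1. In the hermaphrodite the genes are transcribed in developing spermatocytes during the last larval stage, before the germline switches to oocytes. The family is a set of short, near-identical genes, so reads from a member can match another, and how the counting treated such reads is not given in the sources used here. A value for a single member is therefore uncertain, since it can hold reads of its copies or lack reads that match several copies. The summed level of the family is given beside it, and that sum too would lack any reads left uncounted. In whole animals, fewer sperm-forming cells and less MSP RNA per cell cannot be told apart.

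The libraries were made from pools of mid-L4 animals, smaller in the outcross lines, each from an independent experiment or line. The first experiment comprised WT F1-1DOA and WT F1-4DOA, the progeny of wild-type mothers at adult day 1 and day 4 at 20°C, WT F1-25C, grown at 25°C for a generation, WT F1-back, returned to 20°C for a generation after the warm period, set-2 F1-1DOA, set-2 F1-4DOA and set-2 F1-25C, the same treatments in set-2(zr1208), and the cross-progeny WT 1DOA x 1DOA and WT 1DOA x 4DOA of day 1 males and day 1 or day 4 hermaphrodites at 20°C, with 4 libraries each. The second comprised 3 kinds of line, with libraries of F3 and of F5 animals at 20°C, namely WT-ctrl, WT-des and MUT-des, the crossed wild-type controls and the wild-type and mutant descendants of WT males and set-2(zr1208) hermaphrodites, with 4, 4 and 3 libraries at each generation. Whether F3 and F5 libraries came from the same lines is not given in the labels. By the paper's account the sequenced descendants came from the same cross, and WT-ctrl came from a cross of wild-type animals. Differences of WT-des or MUT-des from WT-ctrl therefore cannot be told apart from differences between crosses. SET-2 is an H3K4 methyltransferase and zr1208 is a point mutation in its catalytic domain, so the count of the set-2 gene does not check the genotype labels. The labels do not give how long the warm period before WT F1-back was, but by the paper it was longer than that of WT F1-25C. The paper describes WT F1-back as progeny of mothers moved back to 20°C at the L4 stage. The 4 libraries of WT F1-1DOA are the controls of 5 of the comparisons below, which are therefore not independent of each other.

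Total counts ranged from 2819460 to 31543107 in the first experiment, the lowest being set-2 F1-4DOA replicate 3, and from 14071245 to 25733464 in the outcross lines, apart from WT-ctrl F5 replicate 2. That library held 1271186 counts and was left out of the fits, group means and ranges of CPM of the outcross lines, but its IV-A share is shown, and it entered the check for outlying libraries. The MSP genes took between 0.122% and 0.71% of the counts of a library, or 3448 to 156388 counts. WT F1-4DOA replicate 4 and set-2 F1-1DOA replicate 2 had the highest MSP sums of their groups, short of the limit of Dixon's outlier test.

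In the WBcel235 annotation, used here for names and gene order only, all 30 members are single-exon genes, 13 on chromosome II and 17 on chromosome IV. The coding length is 381 bases in 28 of them, 357 in msp-32 and 231 in msp-74. Genes of a chromosome more than 500000 bases from the next member were put in separate position groups, a division made from gene order after the files were at hand. II-A held 10 members (msp-3, msp-40, msp-33, msp-32, msp-31, msp-152, msp-74, msp-45, msp-49 and msp-50), II-B held 3 (msp-63, msp-142 and msp-64), IV-A held 8 (msp-55, msp-57, msp-53, msp-19, msp-51, msp-113, msp-59 and msp-65) and IV-B held 9 (msp-76, msp-79, msp-78, msp-81, msp-10, msp-56, msp-77, msp-36 and msp-38). Over the 36 libraries of the first experiment II-A gave 41.5% of the summed MSP level, II-B 9.80%, IV-A 16.2% and IV-B 32.6%.

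The members differed widely in counted level although they code for nearly the same protein. How far reads that match several copies shaped these levels was not tested. The unit is CPM, the count of a gene relative to the TMM-scaled total of its library, here divided by the coding length in kilobases to compare genes. The highest means over the 36 libraries were 726 CPM per kb for msp-36, 714 for msp-81, 601 for msp-40 and 598 for msp-50. The lowest were 1.88 for msp-32, 3.00 for msp-79, 8.32 for msp-113 and 16.1 for msp-63, and these 4 were the members under 20 CPM per kb. The 5 highest members together made up 35.1% of the family. Their order was similar from group to group: msp-36 was among the 5 highest in all 15 groups, msp-40 in 14, msp-81 in 13, msp-50 in 11 and msp-31 in 10.

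**Figure D1:**
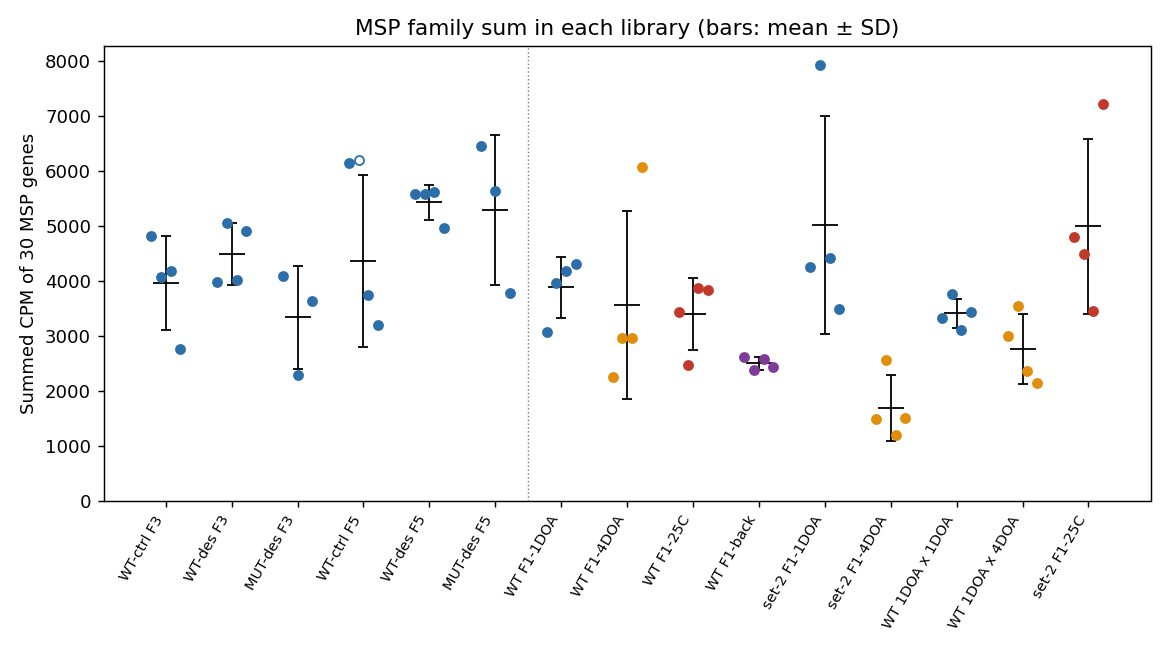
Summed CPM of the 30 MSP genes (y axis) in every library, by group (x axis), with the mean ± SD as black bars. The 4 set-2 F1-4DOA libraries (1198 to 2562 CPM) lie below all 4 set-2 F1-1DOA libraries (3489 to 7939 CPM), the open circle is the shallow WT-ctrl F5 replicate 2, which is not in its mean, and the dotted line separates the experiments, which were normalised separately.

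The family sum was lowest in set-2 F1-4DOA, at 1689 ± 599 CPM (SD, n = 4), followed by WT F1-back at 2500 ± 116 CPM and WT 1DOA x 4DOA at 2760 ± 639 CPM. The set-2 F1-4DOA range, 1198 to 2562 CPM, overlapped that of WT F1-back, 2375 to 2615 CPM, so these neighbours in the order did not differ beyond their spread. Next came WT F1-25C at 3402 ± 657 CPM, WT 1DOA x 1DOA at 3409 ± 272 CPM, WT F1-4DOA at 3568 ± 1710 CPM and WT F1-1DOA at 3885 ± 559 CPM, which also overlapped. The highest means of the first experiment were set-2 F1-25C at 4996 ± 1596 CPM and set-2 F1-1DOA at 5024 ± 1985 CPM. Replicates of a group spread widely, with a coefficient of variation between 4.63% in WT F1-back and 47.9% in WT F1-4DOA.

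The largest difference was that between set-2 progeny of old and young mothers, the comparison that asks whether maternal age acts on the mutant. Nearly the whole family was lower: 29 of 30 members fell in set-2 F1-4DOA and the other, msp-74, had a log2 fold change of −0.85. The family sum was 4254, 7939, 4414 and 3489 CPM in the set-2 F1-1DOA libraries and 1495, 2562, 1198 and 1500 CPM in the set-2 F1-4DOA libraries. The groups did not overlap, and the ratio of the means was 2.98-fold, a log2 ratio of −1.57 with a pooled SD between replicates of 0.49. Without set-2 F1-1DOA replicate 2 the log2 ratio was −1.26, and over all 8 libraries left out in turn it lay between −1.85 and −1.26.

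msp-55, an IV-A gene, had 104, 222, 116 and 93.8 CPM in set-2 F1-1DOA and 33.7, 57.7, 23.6 and 33.3 CPM in set-2 F1-4DOA. Every old-mother library was below every young-mother library. The log2 fold change was −1.83 ± 0.29 (SE, edgeR quasi-likelihood test, adjusted p = 0.000224). msp-33, an II-A gene, had 245, 419, 233 and 186 CPM against 68.4, 126, 63.9 and 77.1 CPM, again with no overlap, and its log2 fold change was −1.68 ± 0.27 (edgeR, adjusted p = 0.000224). The most abundant member, msp-36 of IV-B, went from 279, 604, 316 and 234 CPM to 117, 195, 90.7 and 99.7 CPM, a log2 fold change of −1.51 ± 0.29 (edgeR, adjusted p = 0.000627). msp-50 of II-A went from 285, 494, 314 and 247 CPM to 89.05, 162, 66.02 and 96.5 CPM and msp-40 from 277, 476, 263 and 219 CPM to 98.6, 162, 96.6 and 102 CPM, also without overlap. msp-57, msp-59 and msp-51, all of IV-A, fell by 1.76, 1.66 and 1.78 on the log2 scale.

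The call rule was an adjusted p under 0.05 with a log2 fold change beyond 1, and it took 4.37% of the 15306 genes tested as lower in this comparison. The 30 log2 fold changes lay between −1.89 and −0.85, with a median of −1.56, and all 30 had an adjusted p under 0.05. An unadjusted p under 0.05 was found for all 30 and for 38.1% of genes. In 28 members every set-2 F1-4DOA library lay below every set-2 F1-1DOA library, against 10.6% of all genes. The drop was spread over the chromosome positions, with medians of −1.51 in II-A, −1.48 in II-B, −1.71 in IV-A and −1.51 in IV-B. Other tested genes that lie among the members were called lower too, 10 of 85 in II-A, 1 of 4 in II-B, 6 of 43 in IV-A and 24 of 95 in IV-B. Called higher were 1, 0, 1 and 0 of them, against 1.61% of all genes. DESeq2 also called 29. Leaving out a library gave between 25 and 30 calls.

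Other genes of sperm formation moved beside the MSP genes. Of the 50 genes tested among 56 other sperm genes with an entry, 25 fell and 1 rose, and the median log2 fold change was −1.04. msd-4, an MSP domain gene, fell by 1.77, the small sperm gene nspd-9 by 1.87, the histone gene htas-1 by 1.56 and the sperm activation gene spe-12 by 1.58. The gene that rose was fer-1, which codes for the ferlin of sperm membrane fusion, with a log2 fold change of 1.06 ± 0.19 (edgeR, adjusted p = 0.000368). In set-2 F1-1DOA against WT F1-1DOA it fell by 1.02. It is singled out after its value was seen. The summed level of the list was 3620 to 7214 CPM in set-2 F1-1DOA and 1581 to 2958 CPM in set-2 F1-4DOA, without overlap. Of the sperm fate genes, fog-3, which directs germ cells to become sperm, rose with a log2 fold change of 1.32 ± 0.25 (edgeR, adjusted p = 0.000487), the only called gene among 9 tested. Against a background of 1.61% of all genes called higher, the MSP response list had 1 called of 19, kin-2, the regulatory subunit of protein kinase A, at 1.00 ± 0.36 (edgeR, adjusted p = 0.0422). Of 16 germline and meiosis genes nos-2, which acts in germ cell development, fell by 1.64. None of 8 muscle genes was called, but 7 had a positive value and 5 an unadjusted p under 0.05. Of the intestine and male-enriched lists mtl-2 fell by 1.36 and mab-3 rose by 1.40.

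Oocyte genes also fell in this comparison. Of 19 tested oocyte and eggshell genes 10 fell, among them the eggshell chondroitin proteins cpg-1 and cpg-2, by 1.68 and 1.72 on the log2 scale, and the egg surface proteins egg-1 and egg-2, by 1.55 and 1.18. The list summed to 982 to 2453 CPM in set-2 F1-1DOA and 596 to 1203 CPM in set-2 F1-4DOA. None of 17 molting and L4 genes was called, 4 had an unadjusted p under 0.05, where 38.1% of genes had one, and their median log2 fold change was 0.96, with sums of 4980 to 6080 CPM in set-2 F1-1DOA and 5909 to 10406 CPM in set-2 F1-4DOA. The entries of mex-3, pie-1 and mbk-2 in the oocyte list, nhr-23 in the molting list and spe-41, msd-1, msd-3, ssp-9 and ssp-11 in the sperm list were listed at 0 in all 58 libraries, as was the actin gene act-4, so a 0 here does not show that a gene was silent. The part of developmental timing or germline size in the MSP result was not tested.

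**Figure D2:**
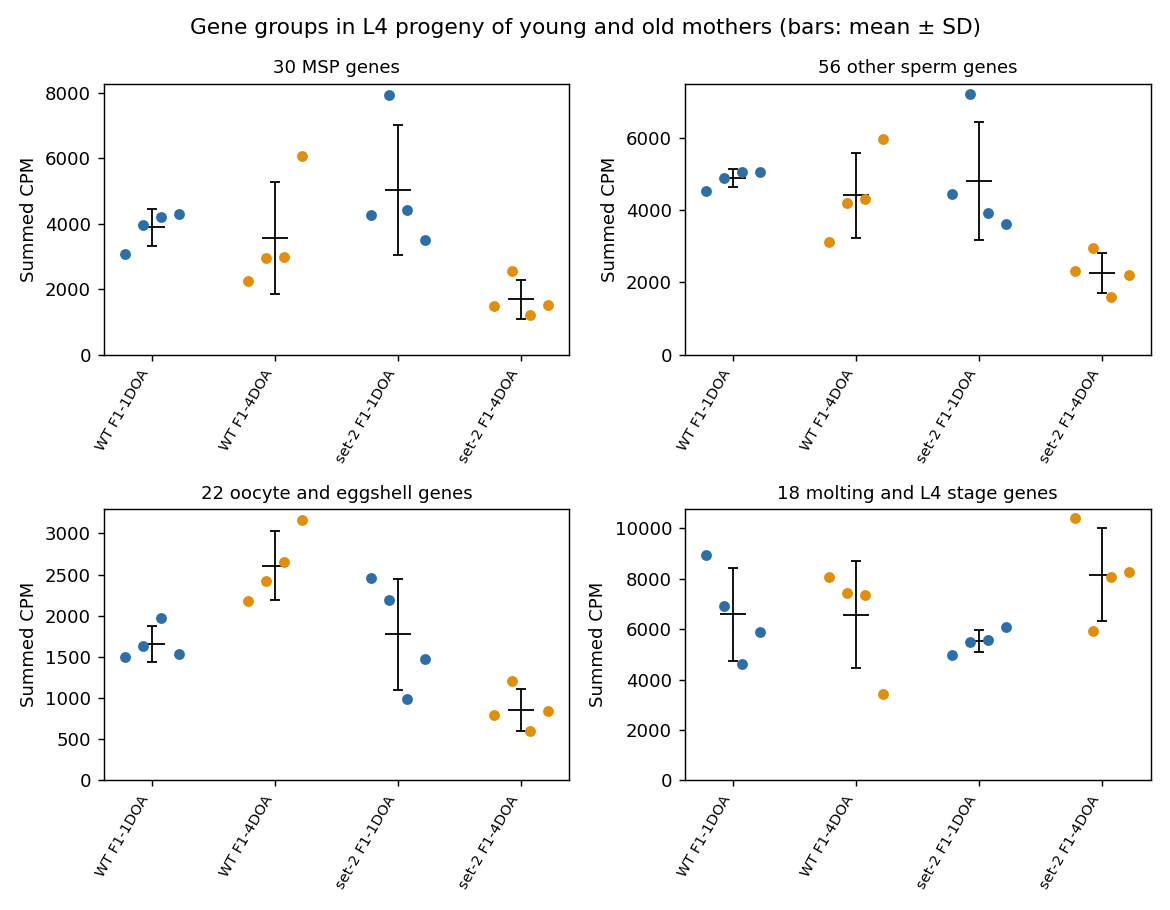
Summed CPM (y axes) of the MSP genes and of 3 other gene lists in each library of the 4 maternal-age groups (x axes), with the mean ± SD as black bars. The MSP and other sperm sums of set-2 F1-4DOA lie below all set-2 F1-1DOA libraries, whereas the molting sums of these groups overlap.

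In the wild type no MSP gene was called between progeny of old and young mothers, against a background of 2.38% of genes called higher and 0.0653% called lower. None had an unadjusted p under 0.05, as 13.9% of genes did, DESeq2 called none, and the median log2 fold change was −0.08. The family sum was 3074, 3967, 4191 and 4308 CPM in WT F1-1DOA and 2260, 2959, 2968 and 6084 CPM in WT F1-4DOA. So 3 libraries of old mothers lay below all 4 of young mothers and replicate 4 lay above them. Without replicate 4 the log2 ratio of the sums went from −0.12 to −0.51. Its molting sum, 3418 CPM, was the lowest of its group, whose median was 7389 CPM and highest value 8077 CPM, and the part of this difference was not tested.

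Whether the effect of maternal age differed between set-2 and wild type was tested with an interaction term. All 30 members had a more negative log2 fold change in set-2, with a median difference of −1.50. 14 of them were called lower, against 1.13% of all genes, and 29 had an unadjusted p under 0.05, against 20.9%. No member was called higher, as 0.0915% of genes were. msp-38 had a difference of −1.66 (edgeR, adjusted p = 0.0264), msp-65 of −2.01 (0.0273) and msp-76 of −1.68 (0.0332). The number of calls depended on the libraries: it was 26 with DESeq2, 0 in a fit of the 4 groups alone, and between 0 and 26 when a library was left out. It was 0 without WT F1-1DOA replicate 1 or 4, WT F1-4DOA replicate 4, set-2 F1-1DOA replicate 2 or set-2 F1-4DOA replicate 1, 3 or 4, 1 without WT F1-1DOA replicate 2, 4 without WT F1-4DOA replicate 3, 9 without set-2 F1-1DOA replicate 1, and 26 without WT F1-4DOA replicate 1, set-2 F1-1DOA replicate 4 or set-2 F1-4DOA replicate 2. The oocyte and eggshell list had 13 of 19 genes called lower in the same interaction, and the other sperm genes 1 lower and 1 higher of 50. For the oocyte list the term combines a higher sum with old mothers in the wild type and the fall in set-2 given above. The wild-type oocyte sums were 1496 to 1975 CPM in WT F1-1DOA and 2183 to 3163 CPM in WT F1-4DOA, without overlap. Of the 19 oocyte and eggshell genes 2 were called higher in that wild-type comparison, perm-2 and perm-4.

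A different pattern appeared at 25°C. In the wild type 5 of the 8 MSP genes of position group IV-A fell, and the sums of the family overlapped. The family sum was 3433, 2464, 3867 and 3845 CPM in WT F1-25C, which overlapped the 3074 to 4308 CPM of WT F1-1DOA. The 5 members that fell were msp-51, msp-55, msp-57, msp-65 and msp-53. The call of msp-53 was lost in 5 of 16 alternatives, namely with library totals and without WT F1-1DOA replicate 3 or 4 or WT F1-25C replicate 1 or 2, and the other 4 calls held in all 16. The call rule took 0.928% of all genes as lower and 4.06% as higher in this comparison.

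msp-55 had 56.2, 75.2, 95.4 and 88.4 CPM in WT F1-1DOA and 40.6, 24.6, 34.9 and 36.96 CPM in WT F1-25C, without overlap, and its log2 fold change was −1.20 ± 0.29 (edgeR, adjusted p = 0.00658). msp-51 had 54.05, 82.05, 88.9 and 98.2 CPM against 37.6, 22.2, 38.2 and 37.6 CPM, a log2 fold change of −1.25 ± 0.29 (adjusted p = 0.00508). msp-57 had 100, 133, 153 and 163 CPM against 67.2, 48.6, 65.4 and 66.1 CPM, a log2 fold change of −1.15 ± 0.28 (adjusted p = 0.00771). In each of these genes the 4 warm libraries were below all 4 control libraries, with replicate 2 the lowest of the warm group. By contrast the most abundant members did not separate: msp-36 had 263, 354, 323 and 318 CPM at 20°C and 362, 266, 359 and 368 CPM at 25°C, a log2 fold change of 0.11 ± 0.28 (edgeR, adjusted p = 0.907), and msp-81 had −0.03 ± 0.26 (adjusted p = 0.974).

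The remaining IV-A members, msp-19, msp-59 and msp-113, had log2 fold changes of −0.93 (adjusted p = 0.0187, short of the fold threshold), −0.66 and −0.74. Thus the 8 members of IV-A lay between −1.29 and −0.66, with a median of −1.10, and all 8 had an unadjusted p under 0.05, as did 20.3% of all genes. The medians were −0.24 in II-A, −0.13 in II-B and 0.06 in IV-B, and in the 22 members outside IV-A the only unadjusted p under 0.05 was that of msp-74 of II-A (−0.61, edgeR, adjusted p = 0.195). Genes that lie among the IV-A members were looked at in the same comparison. The stretch holds 340 other entries, of which 43 were tested. edgeR called none of these in either direction, 8 had an unadjusted p under 0.05, and their median log2 fold change was −0.12.

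**Figure D3:**
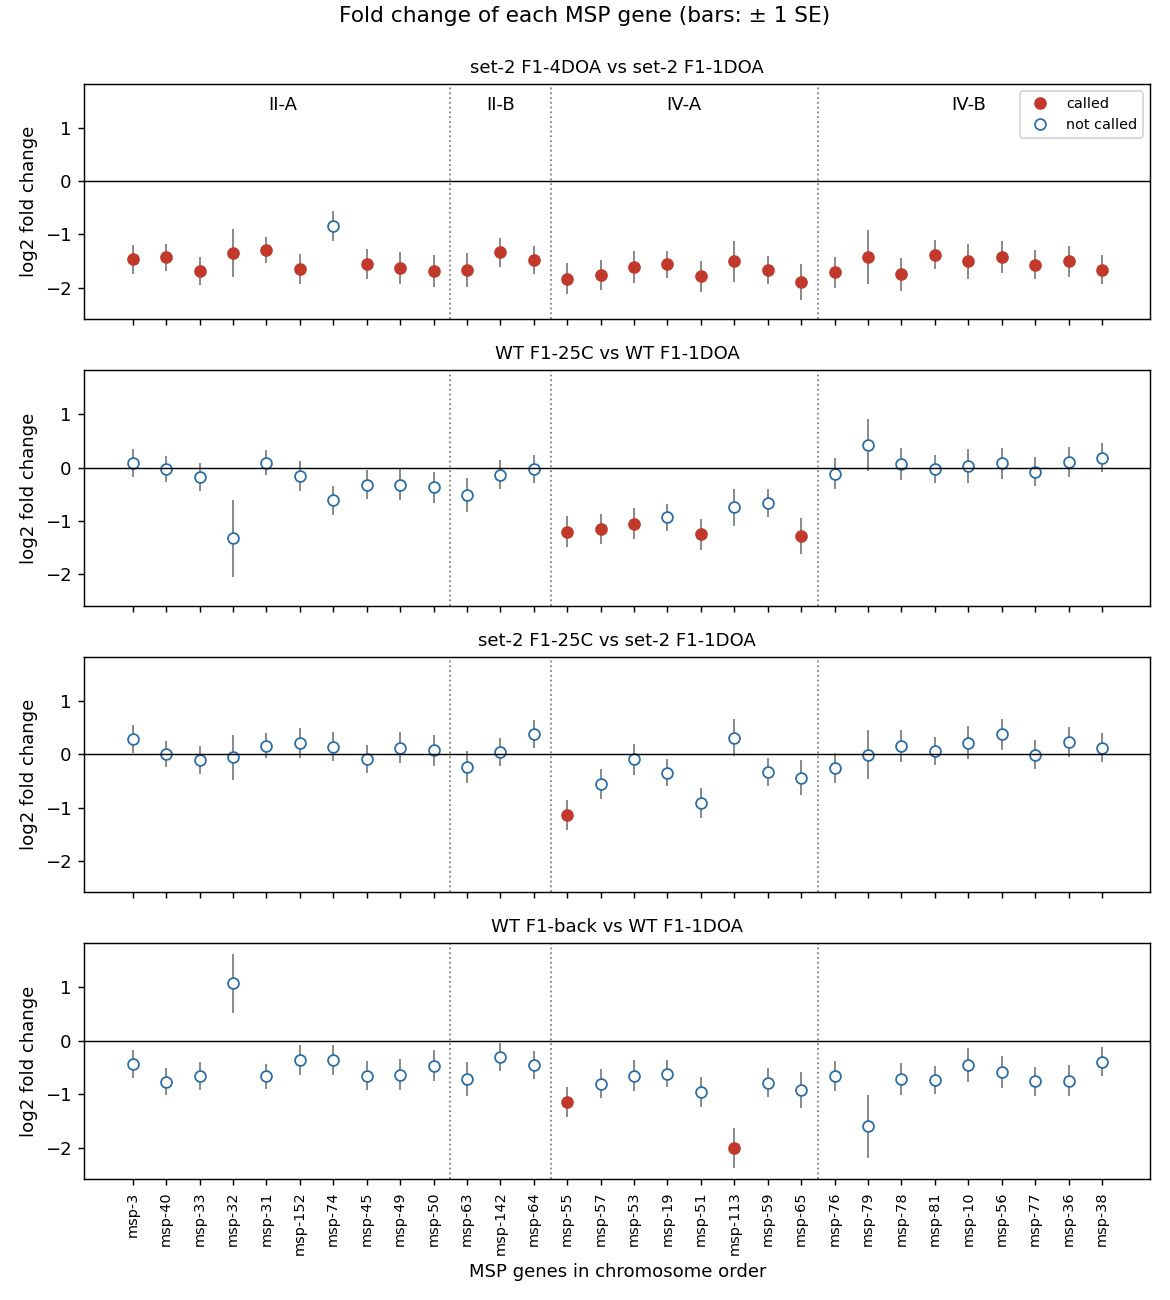
Log2 fold change ± 1 SE (y axes) of the 30 MSP genes in chromosome order (x axis) in 4 comparisons, with called genes filled and dotted lines between position groups. In set-2 F1-4DOA 29 genes are called across all 4 position groups, whereas the 5 called in WT F1-25C lie in IV-A.

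A share of the family does not depend on how a library is scaled to the others. IV-A members made up 15.7%, 16.8%, 18.5% and 18.3% of the MSP sum in WT F1-1DOA and between 9.61% and 11.15% in the 4 libraries of WT F1-25C. In set-2 the share was 19.8%, 19.7%, 18.9% and 19.6% in set-2 F1-1DOA and 14.3%, 14.4%, 13.8% and 13.1% in set-2 F1-25C. Within either genotype the warm and control libraries did not overlap. The 8 libraries grown at 25°C lay between 9.61% and 14.4%, and the other 50, the outcross lines included, between 14.9% and 20.4%. All 8 IV-A members had a lower share of the family in every WT F1-25C library than in any WT F1-1DOA library, as did 1 of 10 in II-A and none in II-B or IV-B. In set-2, 6 of 8 did so against set-2 F1-1DOA, as did 1 of 10 in II-A, none in II-B and 1 of 9 in IV-B. The share was also lower without overlap in set-2 F1-4DOA, at 17.1% to 18.1%, than in set-2 F1-1DOA, and 4 of 8 IV-A members had a lower share there, as did 4 of 8 in WT F1-back against WT F1-1DOA.

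**Figure D4:**
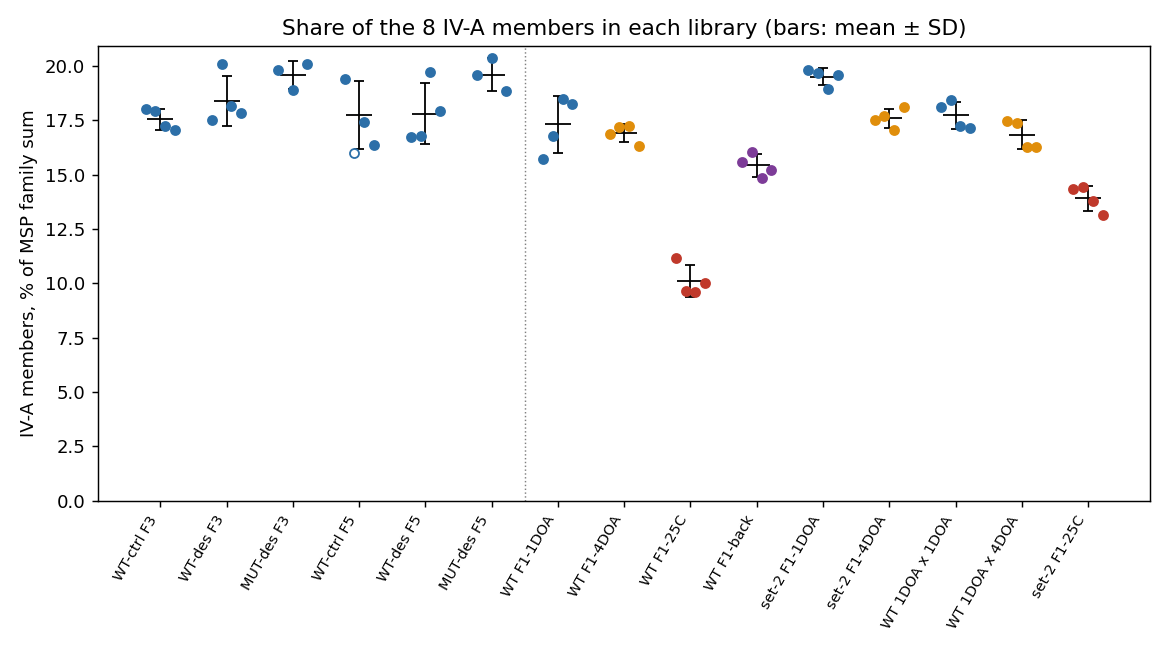
Percentage of the MSP family sum that comes from the 8 IV-A members (y axis) in every library, by group (x axis), with the mean ± SD as black bars and the open circle for the shallow WT-ctrl F5 replicate 2. The 8 libraries grown at 25°C, at 9.61% to 14.4%, lie below the other 50, at 14.9% to 20.4%.

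In set-2 animals at 25°C 1 MSP gene was called. The family sum was 4804, 4488, 3461 and 7231 CPM, which overlapped set-2 F1-1DOA. The log2 ratio of the means was −0.01, and it lay between −0.24 without set-2 F1-25C replicate 4 and 0.30 without set-2 F1-1DOA replicate 2. Of 30 members 1 fell, msp-55, against 0.98% of all genes called lower and 1.99% higher, and 3 had an unadjusted p under 0.05, against 24.5%. It had 62.0, 54.7, 43.4 and 83.5 CPM in set-2 F1-25C, all below the 93.8 to 222 CPM of set-2 F1-1DOA, and a log2 fold change of −1.14 ± 0.28 (edgeR, adjusted p = 0.0124). The call was lost without set-2 F1-25C replicate 3 or without set-2 F1-1DOA replicate 2, and without set-2 F1-25C replicate 4 there were 2 calls. msp-51 had −0.91 ± 0.28 (adjusted p = 0.0411), short of the fold threshold. The median of IV-A was −0.39, against 0.10, 0.05 and 0.12 in II-A, II-B and IV-B. The interaction of temperature and genotype called no member, with 2 unadjusted p under 0.05, where 16.5% of genes had one, and none called by DESeq2, against 1.95% of genes called lower and 0.732% higher. All 8 IV-A members had a positive difference, with a median of 0.59, and the 2 unadjusted p under 0.05 were in IV-A. With no member called, these data do not settle whether the genotypes differ.

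Other gene groups also differed at 25°C in the wild type. Of 19 oocyte and eggshell genes 9 rose, among them egg-2, oma-2, cpg-1 and cpg-2 by 1.06, 1.40, 1.38 and 1.21 on the log2 scale, and the list summed to 1496 to 1975 CPM in WT F1-1DOA and 2353 to 4604 CPM in WT F1-25C. Of 50 other sperm genes 1 rose, ssp-37, and none fell, with a median log2 fold change of 0.02 and sums of 4515 to 5045 CPM and 4464 to 5852 CPM in these groups. Of 17 molting and L4 genes 16 had a negative log2 fold change, 7 had an unadjusted p under 0.05 and the median was −0.68. Of these mlt-10 fell by 1.39, and col-19, the gene with a positive value, rose by 1.63. All 5 vitellogenins, the yolk proteins, had positive values with a median of 1.44, and vit-1 rose by 2.15. The part of these in the IV-A result was not tested.

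In WT F1-back, the progeny of mothers returned to 20°C, 2 of 30 members were called lower than in WT F1-1DOA, and the family sums did not overlap. WT F1-back had family sums of 2615, 2375, 2581 and 2430 CPM, all below the 3074 to 4308 CPM of WT F1-1DOA, a 1.55-fold difference and a log2 ratio of −0.64. Of 30 members 29 had a negative log2 fold change, 20 had an unadjusted p under 0.05, against 11.6% of genes, and in 22 the groups did not overlap, against 6.98% of all genes. Only msp-113 and msp-55 were called, against 0.144% of genes called lower. msp-55 had 37.6, 36.4, 35.04 and 33.3 CPM in WT F1-back, a log2 fold change of −1.15 ± 0.28 (edgeR, adjusted p = 0.0452), and its call was lost in 10 of 16 alternatives, among them the removal of any WT F1-back library or of WT F1-1DOA replicate 2, 3 or 4, each of which left 1 call. Here the position groups were closer together, with medians of −0.55 in II-A, −0.46 in II-B, −0.86 in IV-A and −0.71 in IV-B. The IV-A share was 15.6%, 16.05%, 14.9% and 15.2%, which overlapped WT F1-1DOA at its lowest library.

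Beside this, 1 of 50 other sperm genes fell, nspd-3, by 1.22 on the log2 scale, and 18 had an unadjusted p under 0.05. The list summed to 3335 to 3636 CPM, below the 4515 to 5045 CPM of WT F1-1DOA. fog-3 rose, with a log2 fold change of 1.30 ± 0.26 (edgeR, adjusted p = 0.00528), against 0.405% of genes called higher. No oocyte and eggshell gene was called or had an unadjusted p under 0.05, and none of the 17 molting genes did.

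Compared with animals kept at 25°C, WT F1-back had 3 called members, against 2.18% of genes called higher and 6.05% lower. These groups differ in the length of the warm period as well as in present temperature, and the parts cannot be told apart. An unadjusted p under 0.05 was found for 11 members and 32.1% of genes. msp-32 rose and msp-79 and msp-113 fell, and all 3 are members of low level with few counts, of 12 or fewer for msp-32, 25 or fewer for msp-79 and 66 or fewer for msp-113 in these 8 libraries. The IV-A members other than msp-113 had log2 fold changes between −0.13 and 0.39, whereas the 9 of IV-B had a median of −0.69 and a range of −2.03 to −0.49. The call of msp-113 was lost in 4 of 15 alternatives, without WT F1-25C replicate 1 or 4 or WT F1-back replicate 3 or 4, and that of msp-79 in 1, without WT F1-back replicate 2. In the same comparison 13 of 19 oocyte and eggshell genes fell, as did 8 of 50 other sperm genes, whose medians were −1.12 and −0.59. Of 17 molting and L4 genes 3 rose and 1 fell, fog-3 rose by 1.52, and nos-2, vit-1 and the intestinal metallothionein gene mtl-2 fell, with log2 fold changes of −1.72, −1.78 and −1.80. Their part in the MSP values was not tested.

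msp-113, a low member of IV-A, was the member called most often outside the set-2 maternal age comparison. It had 4.20, 7.73, 6.42 and 6.19 CPM in WT F1-1DOA and 4.12, 5.44, 5.59 and 10.5 CPM in WT F1-4DOA. In the cross-progeny it had 1.90, 1.96, 1.69 and 2.20 CPM in WT 1DOA x 1DOA and 1.08, 1.64, 1.17 and 1.84 CPM in WT 1DOA x 4DOA, from 6 to 36 counts a library. The cross-progeny of either maternal age thus lay below all self-progeny of the same age. The paper describes its age crosses with males that carried a fluorescent marker, by which cross-progeny were picked. Mating and the strain of the father therefore cannot be told apart. The labels used here do not give the sex of the pooled progeny, and its part was not tested. The log2 fold changes were −1.64 ± 0.36 for young mothers (edgeR, adjusted p = 0.00888) and −2.12 ± 0.38 for old mothers (adjusted p = 0.000674), and both calls held in all 15 alternatives that tested the gene. In WT F1-back it had 2.13, 1.66, 1.34 and 0.907 CPM and a log2 fold change of −2.01 ± 0.37 against WT F1-1DOA (adjusted p = 0.00229).

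**Figure D5:**
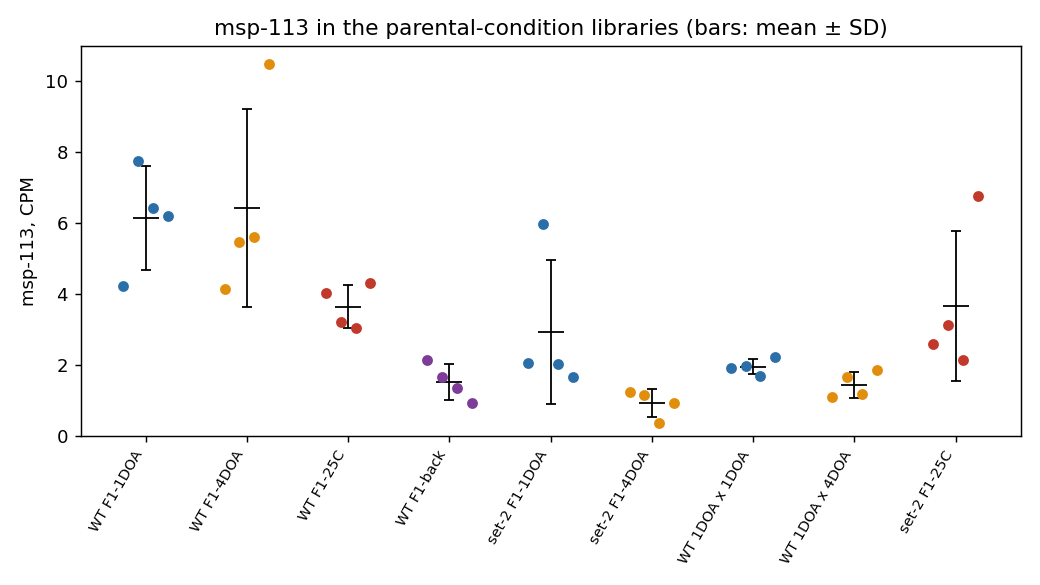
CPM of msp-113 (y axis) in every library of the first experiment, by group (x axis), with the mean ± SD as black bars. The WT F1-1DOA and WT F1-4DOA libraries lie between 4.12 and 10.5 CPM, above all cross-progeny and WT F1-back libraries.

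In set-2 F1-1DOA msp-113 had 2.06, 5.96, 2.03 and 1.64 CPM. Its log2 fold change against WT F1-1DOA was −1.07 ± 0.35 (edgeR, adjusted p = 0.0424), while 28 of the 30 members had a positive value in this comparison, with a median of 0.48. The other called member, msp-32, rose with a log2 fold change of 2.08 ± 0.51 (adjusted p = 0.0119) from 0.0977, 0.245, 0.566 and 0.303 CPM to 0.809, 2.06, 1.92 and 0.693 CPM, and is a gene of at most 28 counts in any library. The call rule took 1.71% of genes as higher and 1.01% as lower, and 11 members and 31% of genes had an unadjusted p under 0.05. The call of msp-113 was lost in 9 of 15 alternatives, among them the removal of any of these 8 libraries except set-2 F1-1DOA replicate 2, and without WT F1-1DOA replicate 1 the call of msp-32 was lost too. The family sum of set-2 F1-1DOA overlapped that of WT F1-1DOA, and its log2 ratio of 0.37 fell to 0.06 without set-2 F1-1DOA replicate 2. Relative to the other sperm genes the MSP sum was higher, however: the ratio of the sums was 0.957 to 1.12 in set-2 F1-1DOA and 0.681 to 0.854 in WT F1-1DOA, and 0.65 to 0.866 in set-2 F1-4DOA. Of the MSP response genes gsa-1, the G protein subunit that acts in the sheath, fell by 1.43.

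In the cross-progeny msp-113 was the only member called against self-progeny by edgeR. The family sum was 3331, 3761, 3108 and 3437 CPM in WT 1DOA x 1DOA and 2998, 3547, 2356 and 2138 CPM in WT 1DOA x 4DOA. Against self-progeny the call rule took 0.921% and 1.89% of genes as lower and 1.40% and 1.05% as higher for young and old mothers. Unadjusted p under 0.05 were found for 2 and 8 members, against 22.9% and 20.8% of genes. For young mothers 26 of 30 members had a negative log2 fold change, with a median of −0.15, and for old mothers 28 of 30 had one, with a median of −0.30. The log2 ratio of the family sums for old mothers was −0.37, and 0.02 without WT F1-4DOA replicate 4. Between the crosses no member was called, against 0.0653% of genes called lower and 0% higher, with no unadjusted p under 0.05, against 7% of genes, and none called by DESeq2. All 30 log2 fold changes between the crosses were negative, with a median of −0.35. The interaction of maternal age and mating called none either, with no unadjusted p under 0.05, against 12.3% of genes, none by DESeq2, and 0.536% of genes called lower and 0.0457% higher. The male-enriched genes summed to 15.3 to 19.5 CPM and 19.4 to 25.2 CPM in the crosses and 13.5 to 22.8 CPM in WT F1-1DOA.

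In the outcross lines no MSP gene was called in any comparison, with edgeR or with DESeq2. MUT-des and WT-ctrl had family sums of 2296 to 6455 CPM and 2762 to 6143 CPM, and the 29 members tested had a median log2 fold change of 0.04 with no unadjusted p under 0.05, against 7.08% of genes with one and 0.107% of genes called higher and 0.0693% lower. WT-des had sums of 3978, 5052, 4024 and 4915 CPM at F3, with WT-ctrl at 4819, 4082, 4185 and 2762 CPM. The median of the members was 0.17 and no unadjusted p was under 0.05, against 1.72% of genes, where 0% of genes were called higher and 0.0063% lower. At F5 WT-des had 5578, 5583, 5627 and 4961 CPM and WT-ctrl 6143, 3748 and 3204 CPM. All 29 members had a positive log2 fold change, with a median of 0.30, but none had an unadjusted p under 0.05, against 1.46% of genes, and the groups overlapped, since WT-ctrl F5 replicate 1 held the highest sum. Background calls were again 0% and 0.0063%. Without that library the log2 ratio of the sums went from 0.32 to 0.65.

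Between generations the family sums overlapped, at 3204 to 6455 CPM at F5 and 2296 to 5052 CPM at F3, with a log2 ratio of the means of 0.36. Of 29 members 28 had a positive log2 fold change, with a median of 0.36 and a maximum of 0.50, and 22 had an unadjusted p under 0.05, as did 26.5% of all genes. After adjustment msp-40 alone was under 0.05, at 0.46 ± 0.14 (edgeR, adjusted p = 0.0464), and none passed the fold threshold, where 0.158% of genes were called higher and 1.95% lower. In the same comparison the vitellogenins had a median of −1.42 and the oocyte genes of −0.57. When each generation was collected is not given, so generation and collection time cannot be told apart.

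The 2 experiments also differed in single members, on levels normalised separately. msp-79 had 3.02 to 8.21 CPM in the 21 outcross libraries and 0.16 to 2.81 CPM in the 36 others, the only member whose ranges did not overlap. msp-55 averaged 133 CPM in the outcross libraries and 62.9 CPM in the others, and msp-32 0.15 and 0.67 CPM, with overlapping ranges. These are descriptions with no test, and experiment and strain history cannot be told apart.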

How the data were processed

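The authors trimmed the reads with Trimmomatic, aligned them to the WS220 (ce10) genome with RNA STAR and assigned them to genes with htseq-count, and the deposited values are raw counts per gene. The library kit keeps no strand. Settings for strand, overlaps and multiple matches: not given in the sources used here. The 22 outcross and 36 other libraries were analysed as 2 tables in R 4.3.3 with edgeR 4.0.16 (TMM, default low-count filter, robust quasi-likelihood fit of all groups). This left 15306 genes in the 36 libraries and 15872 in 21 outcross libraries, with p-values adjusted over all genes by Benjamini-Hochberg. Calls needed a log2 fold change beyond 1 in size together with an adjusted p below 0.05. edgeR was tested on simulated data. SE is the log2 fold change over the root of F. Family sums are descriptions without a test. p-values rest on the spread between samples within groups, which the labels call biological replicates, estimated over all groups of a fit together. For WT-des and MUT-des this spread was between lines of the same cross. Alternatives were DESeq2 1.42.0, other scaling, filters, thresholds, groups in the fit, a replicate block and each library left out. Members and gene lists were chosen with earlier results of these data known. Named are the 4 highest members, up to 8 called with the smallest adjusted p, 5 called a comparison and 4 called a list, and others are said to be chosen after their values were seen. The library values of msp-113, msp-32 and msp-79 and the gene fer-1 were chosen after their values were seen. Promoter motifs and sequences were not analysed here.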

Additional observations from a re-analysis of the deposited data

Results flagged for a closer look

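In groups of 4 libraries, 221 sets of values (the family sum, the IV-A share and 15 members) were checked for a library far from the others by Dixon's test at the 95% level, and 13 were past it. Chance flags about 1 in 20 groups. WT F1-25C replicate 2 was low in msp-36 (265.5 CPM), msp-57 (48.6 CPM), msp-51 (22.2 CPM) and msp-19 (33.8 CPM). WT F1-4DOA replicate 4 was high in msp-81 (469 CPM) and msp-50 (371.5 CPM). set-2 F1-1DOA replicate 2 was high in msp-38 (216 CPM), msp-113 (5.96 CPM) and msp-79 (2.80 CPM), and set-2 F1-4DOA replicate 2 in msp-40 (162 CPM) and msp-59 (106 CPM). In the outcross lines WT-ctrl F3 replicate 4 was low in msp-19 (59.4 CPM), and WT-des F5 replicate 4 had a low family sum (4961 CPM).

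The interaction test of maternal age and genotype called 14 of 30 members, with edgeR adjusted p between 0.0264 and 0.0486, against 1.13% of all genes called lower. These calls were not stable: none remained in a fit of only the groups compared, and 0 to 26 did when a library was left out. The differences of the log2 fold changes, set-2 minus wild type, were −1.43 for msp-19, −1.43 for msp-3, −1.47 for msp-33, −1.54 for msp-36, −1.66 for msp-38, −1.50 for msp-45, −1.53 for msp-55, −1.50 for msp-57, −1.53 for msp-59, −1.69 for msp-63, −1.43 for msp-64, −2.01 for msp-65, −1.68 for msp-76 and −1.69 for msp-78.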

How the results depend on the processing

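Of 317 alternative counts of called MSP genes 267 stayed within 1.5 times the count reported, 18 were no longer above 0, 2 became so and 30 moved further, and of 185 alternative family ratios 184 moved by less than the spread between replicates. No count of calls and no called member reversed, but family ratios near 0 changed sign when a library was left out: WT F1-4DOA against WT F1-1DOA ranged from −0.51 to 0.04, set-2 F1-25C against set-2 F1-1DOA from −0.24 to 0.30, WT 1DOA x 4DOA against WT F1-4DOA from −0.54 to 0.02 and MUT-des against WT-ctrl from −0.05 to 0.21. The interaction of maternal age and genotype gave 5 calls with library totals, 3 without a filter, 9 with genes averaging at least 50 counts, 0 with only the groups compared and 26 with DESeq2. WT F1-back against WT F1-1DOA gave 1 call with RLE factors, 1 without a filter and 0 with genes averaging at least 50 counts, and against WT F1-25C 0 with that filter and 6 without the fold threshold. set-2 F1-1DOA against WT F1-1DOA gave 1 without a filter, 0 at an average of at least 50 counts and 0 with only the groups compared. set-2 F1-25C against set-2 F1-1DOA gave 2 with library totals, 2 without the fold threshold and 0 with only the groups compared. Both crosses against self-progeny gave 0 at this average of at least 50 counts, a filter that leaves msp-113 untested. F5 against F3 gave 1 without the fold threshold. Where no construction is named, the cause was not tested.

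With each library left out in turn, calls ranged from 1 to 2 for WT F1-back against WT F1-1DOA, 0 to 2 for set-2 F1-1DOA against WT F1-1DOA, 0 to 2 for set-2 F1-25C against set-2 F1-1DOA, 0 to 26 for maternal age by genotype and 0 to 1 for temperature by genotype, the 1 without set-2 F1-1DOA replicate 2. The log2 ratio of the family sum of WT-des F5 to WT-ctrl F5 ranged from 0.14 to 0.65, the latter without WT-ctrl F5 replicate 1. Libraries of the same replicate number in different groups had deviations with a median correlation of −0.0072 and a minimum of −0.648 in the first experiment. In the outcross lines these were 0.0384 and −0.464. For different numbers the medians were −0.0053 and −0.0165. Correlations over 0.1 were found in 43 of 144 and 20 of 46 pairs of the same number. For different numbers they were found in 135 of 432 and 41 of 137. Medians over all groups cannot exclude pairing between particular groups. A replicate block gave 16 calls instead of 14 in the interaction of maternal age and genotype and the same count in the other 16 comparisons. The low counts of msp-32, msp-79 and msp-113 limit their precision.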
